A study of Mus musculus with 2 samples.

Results

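The cytosolic ribosomal protein genes were described in tissue labelled as mouse subcutaneous fat, the white adipose depot under the skin. Members were the protein-coding genes whose symbol names a protein of the small subunit (Rps followed by a number, or Rpsa), of the large subunit (Rpl followed by a number) or of the P-stalk (Rplp0, Rplp1 and Rplp2). The number could be followed by at most 1 letter (a, x, y or l) and 1 digit, which leaves out Rpl36al. A total of 83 genes met this rule, 32 of the small and 51 of the large subunit, of 43346 annotated genes in the tables. A further 5 genes met the symbol pattern but are annotated as pseudogenes (Rpl6l, Rps12l1, Rps3a2, Rps3a3 and Rps4l) and were not counted as members. The tissue was taken from 8-week-old littermates of strain C57BL/6J, with males and females pooled, and no treatment or genetic change is named. There were 2 libraries, biological replicates 1 and 2 of 1 group, which carry separate tissue records and the same donor record. PolyA-tailed RNA longer than 200 nt and depleted of ribosomal RNA was sequenced as stranded pairs of 76-nt reads with added spike-in RNAs. The number of animals in each pool is not stated in the labels.

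Each ribosome is built from a small subunit, which reads the mRNA, and a large subunit, which joins amino acids. Most of these proteins are needed in a fixed stoichiometry, and their mRNAs are among the most abundant in nearly every cell. Many of these mRNAs begin with a C followed by a run of pyrimidines, the 5′ terminal oligopyrimidine or TOP motif, through which mTORC1 signalling controls their translation. The family is also known for its many retrocopies, which are intron-less copies of the mRNA inserted elsewhere in the genome and mostly annotated as pseudogenes.

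The sequence around the annotated start shows which members carry the TOP motif at that base, and 10 windows are shown, 7 with the motif and 3 without it. RefSeq promoter windows on GRCm38.p6 were matched for 63 of the 83 members. Each line holds 25 bases before the annotated start and 15 from it on, on the gene's strand, with a run of pyrimidines that begins with C at the start in capitals.
Rps6: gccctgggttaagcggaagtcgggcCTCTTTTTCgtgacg
Rps10: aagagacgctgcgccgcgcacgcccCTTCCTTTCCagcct
Rps18: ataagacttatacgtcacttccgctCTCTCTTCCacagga
Rpl15: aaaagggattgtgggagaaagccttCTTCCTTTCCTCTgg
Rpl35a: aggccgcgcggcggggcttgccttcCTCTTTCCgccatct
Rpl38: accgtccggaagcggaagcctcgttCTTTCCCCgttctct
Rpl28: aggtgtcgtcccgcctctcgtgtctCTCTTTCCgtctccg
Rpl13: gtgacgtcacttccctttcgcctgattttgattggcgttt
Rpl12: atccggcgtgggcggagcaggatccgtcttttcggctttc
Rplp0: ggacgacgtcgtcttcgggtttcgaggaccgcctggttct
The first 7 windows have the run and the last 3 do not have it at the annotated base. Among the 7, Rps10 had 1247 TPM in replicate 1 and 531 in replicate 2, and Rps6, a substrate of the S6 kinases, had 678 and 269.6 TPM. Rpl38 had 486 and 233 TPM and Rpl35a had 411 and 189.8 TPM. Rpl15 was the lowest of the 7 in both libraries, with 321 and 115 TPM, and all 7 had a lower TPM in replicate 2. The windows lie at chr4:86857353-86857392 (minus strand, Rps6), chr17:27635230-27635269 (minus, Rps10), chr17:33955651-33955690 (minus, Rps18), chr14:18270972-18271011 (minus, Rpl15), chr16:33056457-33056496 (plus, Rpl35a), chr11:114668555-114668594 (plus, Rpl38), chr7:4792940-4792979 (plus, Rpl28), chr8:123102325-123102364 (plus, Rpl13), chr2:32961687-32961726 (plus, Rpl12) and chr5:115559442-115559481 (plus, Rplp0).

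A C followed by at least 4 further pyrimidines at an annotated start was found in 13 of the 63 matched members (20.6%), against 813 of all 27025 genes with a window (3.008%). The motif CCGGAAG, the core bound by ETS-family factors, was present on either strand of the 300-base window in 26 members (41.3%) and in 9.93% of all genes. GGGCGG, the GC box, was present in 39 members (61.9%) and 38.2% of all genes, and TATAAA in 7 members (11.1%) and 15.7% of all genes. Rpl38 holds CCGGAAG within the stretch shown above. A match says that these letters stand in the window, and an annotated start need not be the base at which transcription began in this tissue.

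The libraries stand apart in cell type markers, which bears on every comparison between them. All 10 adipocyte markers were present in both, with sums of 20728 TPM in replicate 1 and 44795 in replicate 2. Each of the 10 passed 2-fold toward replicate 2, meaning that the 95% interval of its ratio of scaled counts lay wholly past that bound. All 10 glandular epithelium markers, from Krt19 (223 and 10.3 TPM) to Esrp1 (11.1 and 0.01 TPM), passed it toward replicate 1, with sums of 819.8 and 14.4 TPM. So did all 6 smooth muscle markers (5258 and 633 TPM) and 7 of 8 dividing-cell markers (101.3 and 12.9 TPM). The other dividing-cell marker, Bub1, was below the mean scaled count of 100 needed for a call. Of all 13424 genes at that count, 12.6% passed 2-fold toward replicate 1 and 10.6% toward replicate 2. No marker of these 4 lists was at a count of 0 in either library. Other marker lists were mixed. Toward replicate 2, 4 of 6 endothelial and 2 of 5 erythroid markers passed 2-fold. Of 6 fibroblast markers 2 passed toward replicate 1 and 1 toward replicate 2, and 0 of 5 macrophage markers passed. In the skeletal muscle, T cell and B cell lists only 2 markers each had the count for a call. Of these, 1, 1 and 0 passed, toward replicate 1. In the ribosomal protein values below replicate 1 is mostly the higher library. The part of the cells marked by these lists in that difference was not tested. In bulk RNA fewer cells of a type and less RNA per cell cannot be told apart.

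As a family, the members held 8.45% of all TPM, the relative transcript abundance corrected for length, in replicate 1 and 3.45% in replicate 2, a mean of 5.95% ± 3.53 (SD, n = 2). Their summed TPM was 84467 in replicate 1 and 34501 in replicate 2, which is 2.45 times higher in replicate 1. In expected counts, the members took 1475023 of 53601218 gene counts in replicate 1 (2.75%) and 683112 of 57500971 in replicate 2 (1.19%). The large subunit genes gave 53.5% of the family's TPM in replicate 1 and 54.9% in replicate 2. Among the 100 genes of highest TPM, 26 were members in replicate 1 and 7 in replicate 2.

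Detection, taken as 1 TPM or more in each library, was met by 80 of the 83 members. At least 100 TPM was reached by 71 members in replicate 1 and by 63 in replicate 2, and at least 1000 TPM by 28 and 8. Over the 80 detected members the mean TPM had a median of 469.5, with 74.4 at the 10th and 1609 at the 90th percentile. The 90th percentile was thus 21.6 times the 10th. Small subunit genes had a median of 612 TPM and large subunit genes one of 365. The order of the members was nearly the same in both libraries, with a Spearman correlation of TPM of 0.979 across the 80 genes, which share both libraries and their effective lengths. All 80 had the lower TPM in replicate 2, by 1.11-fold to 4.05-fold with a median of 2.26-fold.

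**Figure D1:**
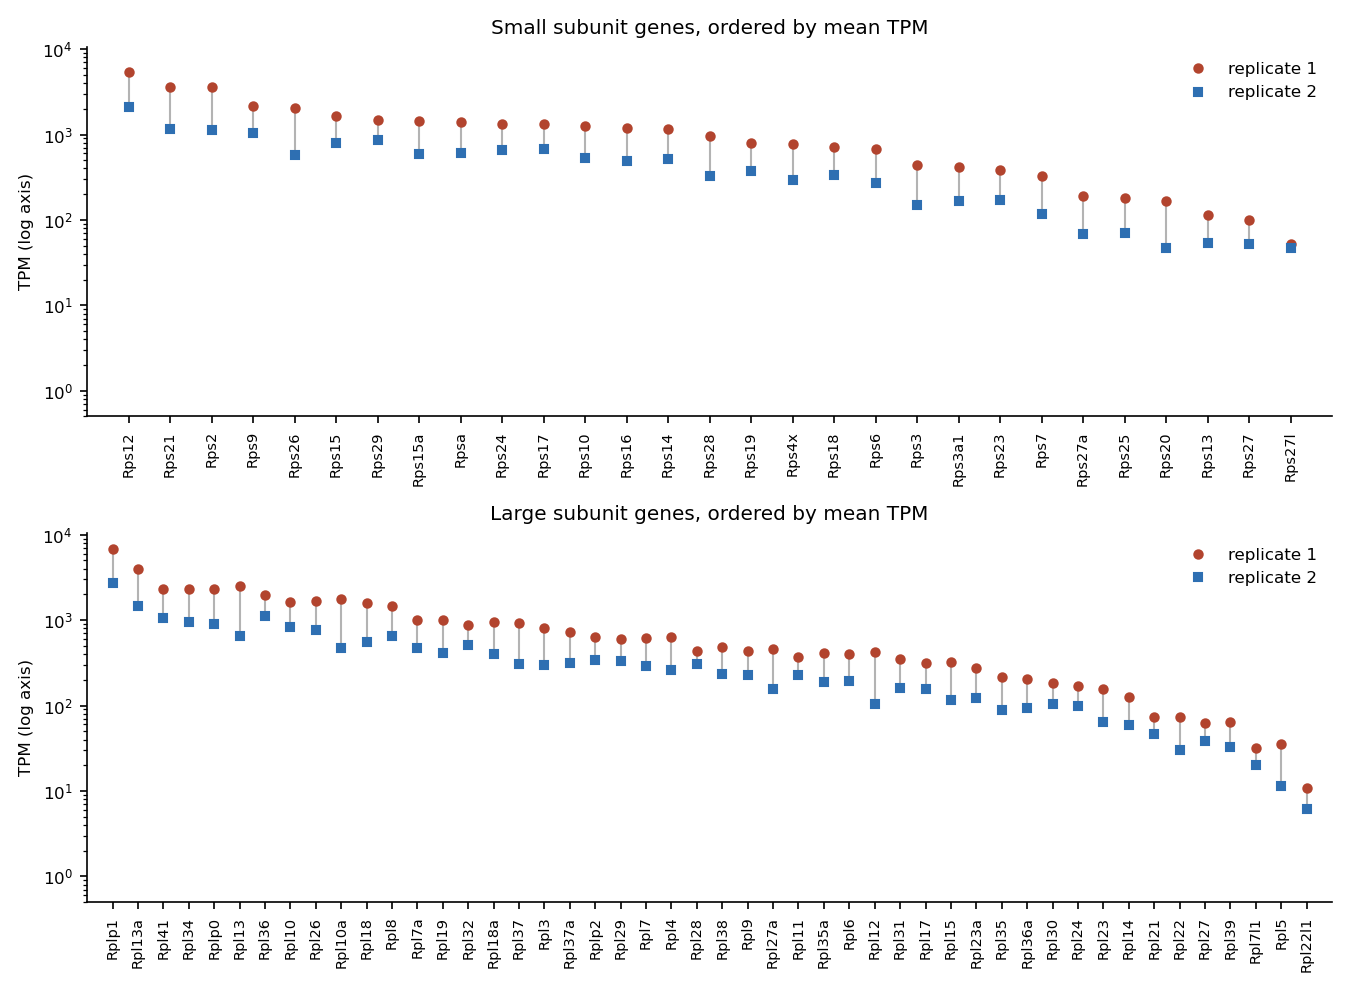
TPM (log axis) of 77 of the 80 detected ribosomal protein genes in replicate 1 (circles) and replicate 2 (squares), small subunit above and large subunit below, each ordered by mean TPM. The grey line joins the libraries, and replicate 1 is the higher point for every gene.

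The P-stalk is the flexible arm of the large subunit that recruits the translation factors. Rplp1, one of its acidic proteins, was the most abundant member, at 6729.6 TPM in replicate 1 and 2712 in replicate 2. Rplp0, the base that anchors the stalk, had 2315 and 894 TPM. Rplp2, the acidic partner that pairs with Rplp1, had 637 and 337 TPM. Although the acidic proteins form pairs, the mRNA level of Rplp1 was the higher of the pair in both libraries. Together the 3 genes held 11.5% of the family's TPM in replicate 1 and 11.4% in replicate 2.

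Among small subunit genes, Rps12 came first, with 5381 TPM in replicate 1 and 2102 in replicate 2. Rps21 had 3605 and 1169.9 TPM. Rps2, a protein near the mRNA entry channel, had 3624 and 1114 TPM. These 3 genes were each over 1000 TPM in both libraries, with the lower value in replicate 2. Rps9 had 2167 and 1034 TPM.

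In the large subunit Rpl13a, a protein known for a role outside the ribosome in silencing inflammatory mRNAs, had 3961 TPM in replicate 1 and 1478 in replicate 2. Rpl41, the shortest protein of the ribosome, had 2300.3 and 1046 TPM. Rpl34 had 2330.4 and 961 TPM. All of these are among the 10 members of highest mean TPM. Those 10 held 42.0% of the family's TPM in replicate 1 and 38.9% in replicate 2. A TPM depends on the effective length, the number of positions at which a fragment can start, and several of these mRNAs are short: it was 180 bases for Rps21, 211 for Rpl13a and 262 for Rps12 in replicate 1, against 1125 for Rplp0.

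The low end of the family held the tissue-restricted paralogs. Rpl10l, an intron-less paralog of Rpl10 known from the testis, had a count of 0 in both libraries, where 3 counts would correspond to 0.0987 and 0.0845 TPM. Rpl3l, the paralog of Rpl3 known from skeletal and heart muscle, had 4 counts in replicate 1 and 9 in replicate 2 (0.13 and 0.18 TPM). Rpl39l, a paralog of Rpl39 known from the testis, had 3 and 11 counts (0.14 and 0.43 TPM). The partners of these genes were well expressed: Rpl10 had 1635 and 828 TPM, Rpl3 had 819 and 297 TPM, and Rpl39 had 64.4 and 32.6 TPM. Rpl3l lies 5891 bases downstream of Rps2 on the same strand of chromosome 17 (Rpl3l at 24727820-24736143, Rps2 at 24718116-24721929, mm10), so a member near the top and a member near the bottom of the family are neighbours.

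Other paralogs were expressed beside their partners. Rpl22l1, the paralog of the RNA-binding protein Rpl22, had 10.8 TPM in replicate 1 and 6.10 in replicate 2, which is 14.6% and 20.0% of the TPM of Rpl22 (73.8 and 30.5). Rpl7l1, a paralog of Rpl7, had 31.7 and 20.2 TPM, 5.08% and 6.96% of Rpl7 (625 and 290.1). Rps27l, a p53-induced paralog of Rps27, had 51.6 and 46.5 TPM, 51.6% and 89.7% of Rps27 (99.98 and 51.9). The level of Rps27 itself rests on few fragments, because its only listed transcript is 255 nt long with an effective length of 40.7 bases in replicate 1. Its TPM came from 153 counts in replicate 1 and 83 in replicate 2, while Rps27l had 555 and 583.

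Rpl5 and Rpl11 bind the 5S ribosomal RNA and, outside the ribosome, the p53 regulator Mdm2. Rpl11 had 373 TPM in replicate 1 and 229.6 in replicate 2. Rpl5, its stoichiometric partner, had only 35.6 and 11.3 TPM by its own gene. The reads of Rpl5 could however be divided with a retrocopy, as described next.

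Near-identical copies took a large share of the reads of some members. By alignment of transcript sequences, 831 annotated pseudogenes or gene models elsewhere in the genome matched 79 of the 83 members at 90% identity or more. Of these copies 497 had a count of 0 in both libraries. Their summed TPM was 13659 in replicate 1 and 6129 in replicate 2, equal to 16.2% and 17.8% of the members' own TPM. The expected count divides a read among all features that it matches, so the split between a member and a copy of 100% identity is uncertain.

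For 6 members the copies held over 50% of the summed count in both libraries: Rpl5, Rpl27, Rpl14, Rps13, Rpl12 and Rpl23a. The retrocopy Gm15500 matches Rpl5 at 100% over 1018 bases and had 455 TPM in replicate 1 and 192 in replicate 2. Rpl5 together with its 7 copies had 492 and 204 TPM, where Rpl11 together with its 5 copies had 552 and 315 TPM. The copies of Rpl5 held 91.9% and 93.2% of its sum, the highest share in the family in both libraries. Rpl14-ps1 had 845 and 304 TPM where Rpl14 had 125 and 58.6, and Rpl27-ps3 had 568 and 321 TPM where Rpl27 had 63.0 and 37.9. Rps13-ps1 had 409 and 155 TPM where Rps13 had 115 and 53.5. Gm10275, a copy of Rpl12 with 100% identity over 634 bases, had 919 and 318 TPM where Rpl12 had 422 and 104. A total of 19 members had over 10% of the sum in copies in both libraries. With copies added, the ratio of the 90th to the 10th percentile of mean TPM was 14.8 in place of 21.6.

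**Figure D2:**
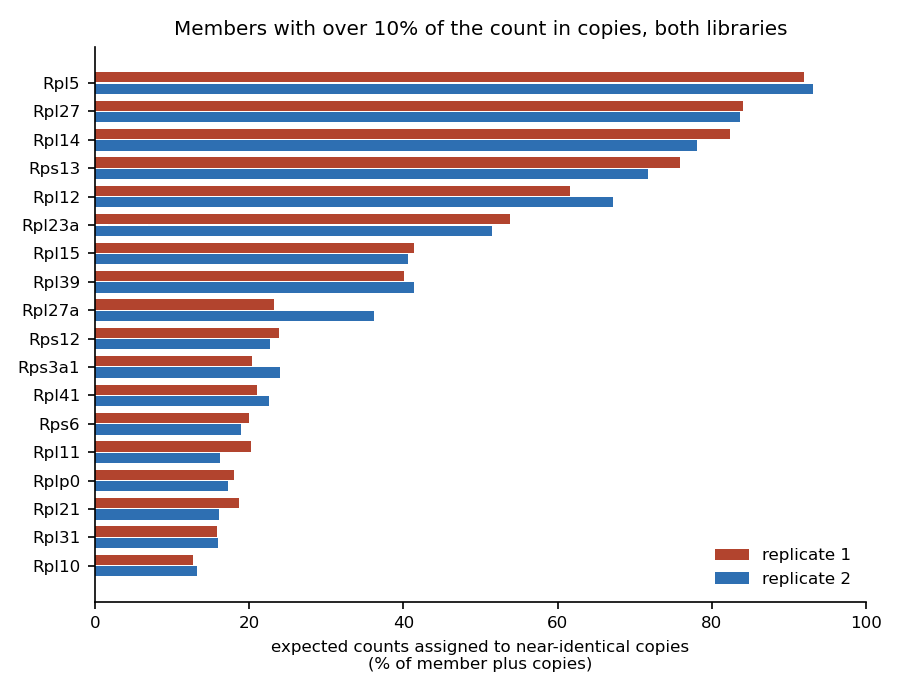
Share of expected counts assigned to near-identical copies, as percent of the member plus its copies, for 18 of the 19 members above 10% in both libraries (upper bar replicate 1, lower bar replicate 2). Rpl5 has the longest bars, at 91.9% and 93.2%.

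The libraries were next compared gene by gene. There is no replicate of each library, so no p-value was computed, and every interval below covers counting error only. Counts were scaled with TMM factors, which set the bulk of all genes near a ratio of 1, and fold differences below are of these scaled counts, not of TPM. The summed count of the family was 1.62-fold higher in replicate 1 (95% Clopper-Pearson interval 1.62 to 1.63). At a mean scaled count of 100 or more, which 80 members had, the log2 ratio of replicate 2 over replicate 1 had a median of -0.57, against 0.04 over all 13424 genes at that count. Over the 1338 of these genes with a mean TPM of at least 100, the median was 0.49 and 29.7% were below 0. Among the 80 members the ratio was below 0 for 76. Its interval lay wholly on the side of replicate 1 for 75 members, where 41.4% of all genes did so, and wholly on the side of replicate 2 for 4, where 45.6% of all genes did so.

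The members lay close together. Their log2 ratios had an interquartile range of 0.40 and an SD of 0.34, against 1.09 and 1.42 over all genes. Over 77 mitochondrial ribosomal protein genes these values were 0.56 and 0.44, so a narrow spread was not particular to the cytosolic family. Of the 80 members, 67 were within 0.5 of the family's median. Few were over 2-fold apart: 7 members had an interval wholly beyond 2-fold higher in replicate 1, where the share of all genes was 12.6%, and 0 in replicate 2, where it was 10.6%. So under TMM the 2-fold calls were no more frequent among the 80 members than among all genes. The count of calls depends on the scaling and the bound. Toward replicate 1, members passed more often than all genes with total count scaling, with the spike-in total and under TMM at 1.5-fold. With total count scaling, which lowers every log2 ratio by 0.51, 42 members passed 2-fold toward replicate 1, against 22.3% of all genes, and 0 toward replicate 2, against 4.4%. With the spike-in total 37 members passed toward replicate 1, against 20.9% of all genes, and 0 toward replicate 2, against 4.88%. Under TMM a bound of 1.5-fold was passed by 32 members toward replicate 1 (19.5% of all genes) and 0 toward replicate 2 (20.3%), and a bound of 4-fold by 0 in either direction (6.18% and 2.14%). In TPM and with total count scaling all 80 members were lower in replicate 2, and with the spike-in total 79 were.

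**Figure D3:**
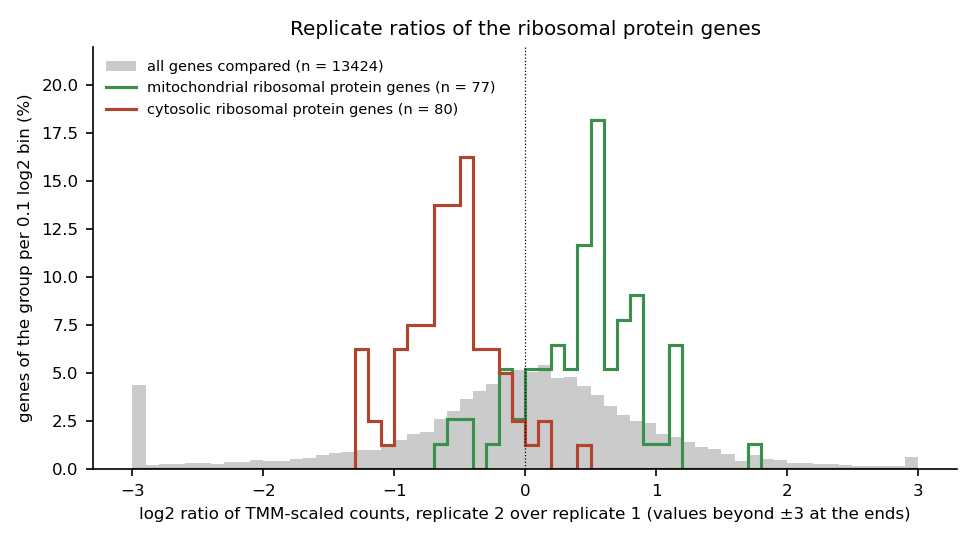
Distribution of the log2 ratio of TMM-scaled counts, replicate 2 over replicate 1, in bins of 0.1, as percent of each group, for all 13424 genes compared (grey), 77 mitochondrial (green) and 80 cytosolic (red) ribosomal protein genes. The cytosolic genes lie mostly left of 0 with a median of -0.57 and the mitochondrial genes mostly right of 0 with a median of 0.50.

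The ribosomal proteins of mitochondria, which are encoded by other nuclear genes, did not follow the cytosolic family. Their median log2 ratio was 0.50 over 77 genes, 12 of which were below 0, so the cytosolic median was lower by 1.07 on the log2 scale, a difference that no scaling changes. No cytosolic member was above the median of the mitochondrial set. The direction of the mitochondrial set does depend on the scaling: its median was -0.01 with total counts and 0.04 with the spike-in total. In TPM the cytosolic family summed to 20.3 times the mitochondrial set in replicate 1 and 9.63 times in replicate 2. Mrpl17, the mitochondrial member of highest mean TPM, had 302 and 232 TPM.

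The members furthest toward replicate 1 were led by large subunit genes. Rpl13 had 2502 TPM in replicate 1 and 658 in replicate 2, and its scaled count was 2.45-fold higher in replicate 1 (2.41 to 2.49). Rpl12, a protein at the base of the P-stalk, had 422 and 104 TPM and was 2.39-fold higher (2.29 to 2.49). Rpl10a had 1776 and 476 TPM and was 2.38-fold higher (2.33 to 2.43). These 3 were the large subunit genes past the 2-fold bound. In the small subunit, Rps20 (165 and 47.3 TPM) was 2.35-fold higher in replicate 1 (2.28 to 2.41). Rps26, which contacts mRNA near the exit channel, had 2061 and 576 TPM and was 2.33-fold higher (2.26 to 2.40). Rps2 was 2.16-fold higher (2.13 to 2.19). When each member was summed with its copies, an alternative chosen after seeing the data, 6 members passed the bound, 5 of them among the 7 that passed without the copies. Rps2 left, moving from a log2 ratio of -1.11 to -0.73, and Rpl12 left by moving from -1.26 to -1.03. The copies of Rps2, mainly Rps2-ps10 (103 and 237 TPM), held 4.57% of the sum in replicate 1 and 26.6% in replicate 2.

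At the other end stood 4 members with more scaled counts in replicate 2. Rps27l was 1.40-fold higher there (1.24 to 1.57), Rpl28 (435 and 307 TPM) was 1.11-fold higher (1.07 to 1.15), Rpl30 (182 and 104 TPM) was 1.08-fold higher (1.02 to 1.15) and Rpl21 (73.8 and 46.8 TPM) was 1.06-fold higher (1.01 to 1.11). All 4 were lower in replicate 2 in TPM and with total counts, and with the spike-in total Rps27l alone stayed above 0, at a log2 ratio of 0.03. Rpl30 changed side with its copies added, from a log2 ratio of 0.11 to -0.33, and its copies held 28.8% of the sum in replicate 1 and 3.35% in replicate 2. Rpl7l1 was the member whose interval included a ratio of 1 (1.01-fold higher in replicate 1, 0.951 to 1.07). Rpl11 was next, at 1.04-fold (1.01 to 1.08).

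**Figure D4:**
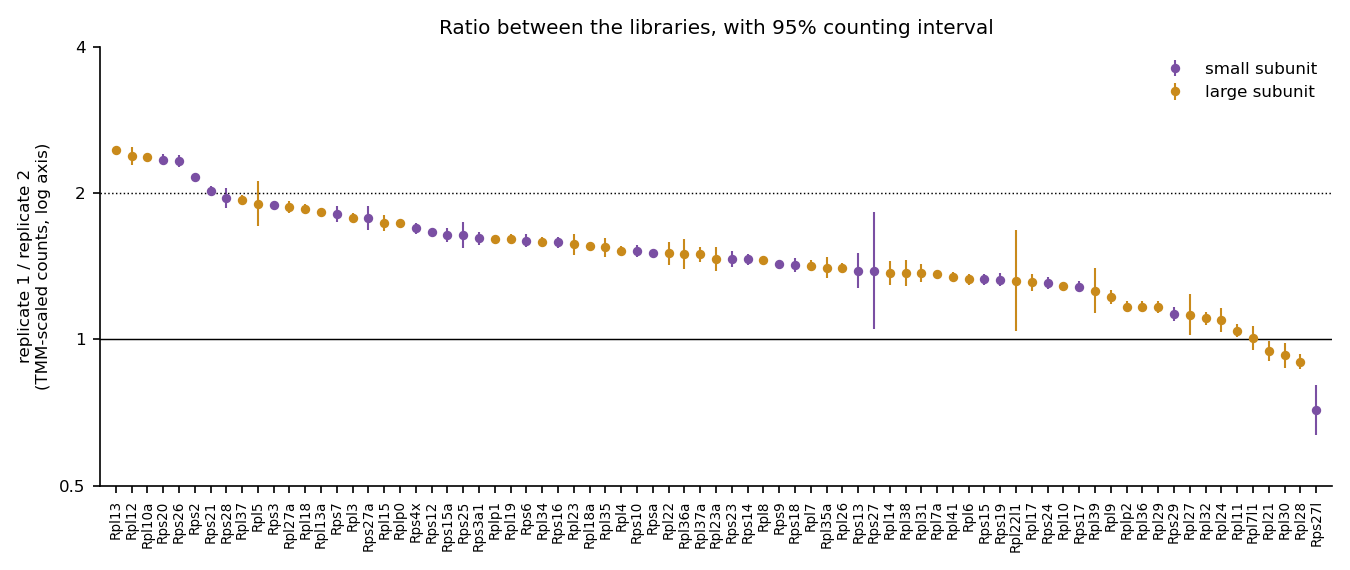
Ratio of TMM-scaled counts, replicate 1 over replicate 2 (log axis), for 77 of the 80 members ordered by ratio, with 95% counting intervals, coloured by subunit. The solid line marks equal counts and the dotted line 2-fold. The points run from 2.45 for Rpl13 to 0.715 for Rps27l.

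Both subunits covered much the same range. The 32 small subunit genes had a median log2 ratio of -0.67 (from -1.23 to 0.48) with 4 over 2-fold higher in replicate 1, and the 48 large subunit genes one of -0.50 (from -1.29 to 0.15) with 3. Across members the ratio had a Spearman correlation of -0.28 with mean TPM and of -0.21 with effective length, both given as descriptions over genes that share the same libraries. The 13 members with the pyrimidine run at the annotated start had a median of -0.51 (from -1.02 to 0.15) and the 47 compared members without it one of -0.59 (from -1.29 to 0.48).

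The P-stalk genes differed among themselves. Rplp0 was 1.73-fold higher in replicate 1 (1.72 to 1.75) and Rplp1 was 1.61-fold higher (1.59 to 1.63). Rplp2 was 1.17-fold higher (1.14 to 1.20). None of these intervals overlapped another, but they cover counting error only and are narrow at such high counts.

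Several members serve as reference genes for quantitative PCR, and these too were lower in replicate 2. Rpl32 was 1.11-fold higher in replicate 1 (1.07 to 1.14), with 868 and 509.8 TPM, and Rps29 was 1.13-fold higher (1.09 to 1.16), with 1463 and 852 TPM. Rps18 (705 and 334 TPM) was 1.42-fold higher (1.38 to 1.47) and Rpl4 (627 and 264 TPM) was 1.52-fold higher (1.49 to 1.55). Rpl13a was the furthest of the 6 listed, at 1.83-fold (1.79 to 1.87), with Rplp0 next. A ratio to Rpl13a and a ratio to Rpl32 would therefore differ between these libraries by more than counting error.

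Of 16 members in which human variants cause Diamond-Blackfan anaemia, all were detected and all were lower in replicate 2 by scaled counts, with a median log2 ratio of -0.48, close to the family's -0.57. Rps26 was the single gene of the list past 2-fold, where 12.6% of all genes were. Of the others with high levels, Rpl26 had 1665 and 772 TPM, Rps24 had 1329 and 662 TPM, and Rps19, the gene most often affected, had 788 and 373 TPM. Rps27a, which is made as a fusion with ubiquitin, had 188 and 68.2 TPM, with a log2 ratio of -0.83.

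Most members used the same transcript in both libraries. The 80 detected members have 365 listed transcripts, 21 of them have only 1, and 77 had the same leading transcript in both libraries. The leading transcript took a median of 95.5% of the gene's TPM in replicate 1 and 96.0% in replicate 2, and over 90% in both for 49 members. Rps24, whose terminal exons are spliced differently between tissues, gave 99.6% to 1 coding transcript, Rps24-201, in both libraries. Only 2 transcripts of Rps24 are listed, so forms outside these 2 could not be seen. Of the 80 leading transcripts 75 are annotated as protein coding. Coding transcripts held 89.1% of the family's TPM in replicate 1 and 90.2% in replicate 2, and transcripts with a retained intron held 4.97% and 4.38%.

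The 5 leading transcripts of other kinds are in Rpl12, Rpl5, Rps9, Rps6 and Rpl13a. Rpl12-201, annotated as a target of nonsense-mediated decay, a pathway that degrades mRNAs with an early stop codon, took 62.3% and 64.1% of the TPM of Rpl12. Its coding transcript Rpl12-203 took 7.82% and 18.0%. In Rps9 the retained-intron transcript Rps9-206 took 57.3% and 61.5% of TPM. It is 378 nt long with an effective length of 164 bases, and by expected counts it had 7638 and 4464 against 17501 and 8897 for the coding Rps9-201. In 7 members the transcript of highest TPM was not the one with most counts. The plainest of these was Rps15a, where a transcript of 250 nt with an effective length of 35.8 bases took 92.0% and 89.3% of TPM from 1801 and 733 counts, while the longer Rps15a-204 had 8866 and 3785 counts and 4.62% and 4.14% of TPM. The level of Rps15a, 1456 and 591 TPM, thus depends on that short transcript. Rpl13a depends likewise on a transcript of 338 nt, with 81.3% and 83.7% of its TPM, that has no match in the later annotation used for names.

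Among the members with the most divided transcript use were Rpl30, Rpl15, Rps19, Rpl27, Rps10, Rpl22l1, Rps2, Rps18 and Rps14. In Rpl15 coding transcripts shared the gene, with 43.5% and 36.6% for the first of them, Rpl15-203. In Rps10 the coding Rps10-208 took 55.4% and 49.9% and Rps10-201 took 36.6% and 40.8%. In Rps2 a retained-intron transcript came second, as Rps2-203 took 41.0% and 46.5%. A shift of 10 points or more between the libraries was seen in 9 members by at least 1 transcript. In Rpl30 the processed transcript Rpl30-205 had 40.7% in replicate 1 and 23.1% in replicate 2, and the coding Rpl30-202 had 16.8% and 33.4%. The first transcript of Rpl30 was thus Rpl30-205 in replicate 1 and Rpl30-201 in replicate 2 (35.4%). In Rpl27 the leader changed, from Rpl27-202 with 54.1% in replicate 1 to Rpl27-201 with 49.5% in replicate 2. Rps18 changed its leader too, as Rps18-206 went from 45.9% to 61.8% and Rps18-201 from 49.4% to 35.8%. No test was made on these percentages, which are estimates from 1 library each.

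**Figure D5:**
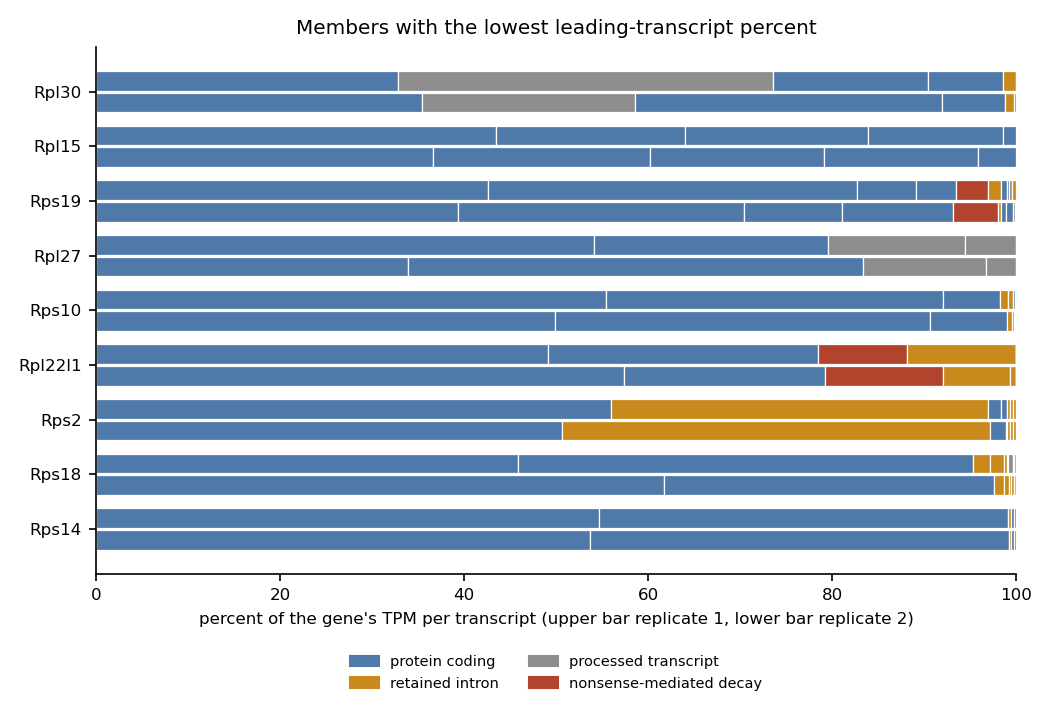
Percent of each gene's TPM by transcript for 9 of the 10 members with the lowest percent in the leading transcript, coloured by annotated transcript type (upper bar replicate 1, lower bar replicate 2). Rps2 shows a large retained-intron segment and the other bars are mostly protein coding or, in Rpl30 and Rpl27, partly processed transcripts.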

How the data were processed

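PolyA RNA-seq tables of 2 libraries were used. No source used here names the counting program. Per the file headers the columns are those that RSEM writes, and per the deposited notes the reads were placed on mm10 with GENCODE M4. The deposited expected counts divide reads that match several features among them. The authors' deposited TPM and FPKM are relative to transcript length and library, and the deposited isoform percent is each transcript's part of its gene's TPM. Deposited posterior estimates and the bounds of TPM, treated as a score, served only as alternatives or not at all. Deposited mm9 junction and contig tables were not used here. Symbols were matched through GENCODE M21 for 42462 genes.

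Expected counts were rounded and scaled with TMM (edgeR 4.0.16, R 4.3.3). Ratios have exact Clopper-Pearson 95% intervals, which like the floor of 3 counts cover counting error only. Genes with a mean scaled count of 100 or more were called where the whole interval was past 2-fold, and lists used those with 10 or more. The code for this rule was tested on simulated data with sampling noise only, which says nothing of the spread between animals. Log2 ratios were computed here from the deposited expected counts after scaling. Copies were found with blastn 2.17.0 (at least 90% identity over at least 100 bases and 50% of the shorter sequence). DESeq2 (1.42.0) size factors, total and spike-in scaling, filters and bounds were alternatives. Named genes were the 10 highest and 10 lowest members by mean TPM, the 6 highest and 6 lowest ratios, the P-stalk, paralog, 5S and reference-gene lists, the 10 members with most divided transcript use, and the 4 highest of other lists; others were chosen after their values were seen. Some genes that this rule names are left out here, in the text and the figures. Members and lists were chosen with earlier results of these data known. Total counts were 54752739 and 58687668.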

Additional observations from a re-analysis of the deposited data

How the results depend on the processing

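Over 6 values of the whole family, 38 alternatives were run. The family's median log2 ratio stayed below 0 in each of its alternatives, while single members and the mitochondrial set did change side with the scaling or with copies added, as given above. Of the 38, 16 moved the value past its limit. The limit was a factor of 1.5 for counts of genes, and a spread or interval for the other values. For the share of TPM it was the SD of the 2 libraries, which leaving out 1 library cannot pass. The family's share of TPM ranged from 3.45% to 8.45% when either library was left out, and the number of detected members stayed at 80. The ratio of the 90th to the 10th percentile of TPM was 19.2 with counts per kb of annotated length, 30.3 with every member above 0 TPM, 14.8 with copies added (an alternative chosen after seeing the data), and 20.5 to 23.8 when either library was left out. The median log2 ratio was -1.08 with total counts, -1.02 with the spike-in total, -1.18 on TPM with a pseudocount of 0.1 or 1, -0.55 with no count filter, -0.58 with at least 500 counts, -0.60 with pseudogenes of the same symbol added and -0.58 with copies added. The number of the 80 members over 2-fold apart was 42 with total counts and 37 with the spike-in total. Of all genes, 22.3% and 20.9% were higher in replicate 1 with these scalings. Under TMM with a bound of 1.5-fold the number was 32, against 19.5% of all genes higher in replicate 1, and with 4-fold it was 0, against 6.18%. The median percent of the leading transcript was 95.5% to 96.0% when either library was left out. Leaving out a library leaves no ratio, so the ratios have no such check. No paired analysis was possible because there is 1 group. With 2 libraries, the SD has 1 degree of freedom, and levels of members with short transcripts or near-identical copies are uncertain.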

Other observations

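The genes around the ribosome did not share 1 ratio between the libraries. Rack1, a scaffold protein of the small subunit outside the symbol rule, had 2776 TPM in replicate 1 and 921 in replicate 2 and a log2 ratio of -0.99, while Fau, which encodes a ribosomal protein fused to a ubiquitin-like protein, had 0.22. Of 15 translation factors and other genes with TOP mRNAs, 12 were below 0, with a median log2 ratio of -0.46 and with Npm1 and Hnrnpa1 over 2-fold higher in replicate 1, where 12.6% of all genes were called (10.6% in replicate 2). Eef1a1, the elongation factor that brings aminoacyl-tRNA, had 5689 and 2980.1 TPM and a log2 ratio of -0.33. Of 22 initiation factors, 11 were below and 11 above 0, with a median of 0.00 and 0 over 2-fold apart. With total counts each of these log2 values is lower by 0.51.

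Of 28 genes for ribosome biogenesis, the assembly of subunits in the nucleolus, 20 were below 0 (median log2 ratio -0.48) and 7 passed 2-fold toward replicate 1. Over all 13424 genes tested, 6452 were below 0, the median was 0.04, and 12.6% passed 2-fold toward replicate 1 and 10.6% toward replicate 2. Nop56, a core protein of box C/D snoRNPs, had 109 and 18.7 TPM. Of 6 snoRNA host genes found, Gas5 had 153 and 34.8 TPM and was the 1 past 2-fold. In the list for mTORC1 and translation control, Eif4ebp1, a repressor of cap-dependent translation, had 218 and 579 TPM and was over 2-fold higher in replicate 2, and Myc, a transcription factor that drives ribosome production, had 81.5 and 11.6 TPM and was over 2-fold higher in replicate 1. The other 13 genes of that list were not called. So 1 of 15 was called in each direction, and 1 of 6 snoRNA hosts toward replicate 1, which are counts too small to set apart from the shares over all genes. Rps4l, a transcribed pseudogene named for its likeness to Rps4x, had 72.9 and 87.1 TPM where Rps4x had 771 and 292.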
